A study of Mus musculus with 5 samples.

Results

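Chemokines and their receptors were described in synovial sarcoma (SyS) tumours of the mouse. Genes were taken by symbol, namely every Ccl, Cxcl, Ccr, Cxcr and Ackr gene with a number, together with Pf4, Ppbp, Xcl1, Xcr1, Cx3cl1 and Cx3cr1. The rule found 68 of 32286 features, 46 ligands and 22 receptors. They carried 62 distinct symbols, 5 of which were held by more than 1 feature. A unique molecular identifier (UMI) was counted in a kept cell for 59 of them and for the other 9 none was. The hSS2 mice that bore the tumours expressed SS18::SSX2, the human fusion oncogene, from Rosa26 once TATCre, a recombinase protein able to enter cells, had been injected into a limb. All 5 tumours carried the fusion, so that no sample was free of it, and each was dissociated when the mouse had become morbid and profiled by droplet 3′ single-cell RNA sequencing. By the histology in the labels, 2 tumours were BP (biphasic, with glandular and spindle areas), 1 was MP (monophasic, spindle only), 1 was MP+BP and 1 was PD+MP (poorly differentiated and monophasic). Both BP labels began with the same number, whose meaning was not stated, and they may come from 1 animal. Recombination depended on where the injected protein acted, no cell type was selected by a promoter, and the age and sex of the mice were not in the labels.

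Chemokines are small secreted proteins that draw cells along a gradient by acting on receptors that couple to inhibitory G proteins. Ligands of Cxcr2 act mainly on neutrophils, ligands of Ccr2 on monocytes, and interferon-induced ligands of Cxcr3 on activated T and NK cells. Atypical receptors such as Ackr3 bind chemokines without G protein signalling and remove them from the surroundings, and Cxcl12 is bound by both Cxcr4 and Ackr3.

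Promoters of 4 ligands are shown first. Cxcl1, Cxcl2 and Cxcl10 were among the ligands of tumour cells whose level varied between tumours. Cxcl12 was high in a group of tumour cell clusters that was picked after the values were seen. Each is the RefSeq sequence of the 250 bases before the gene's start in GRCm38.p6, read 5′ to 3′ on the strand of the gene. For Cxcl1 this was chr5:90890995-90891244 (plus strand), for Cxcl2 chr5:90903649-90903898 (plus), for Cxcl10 chr5:92348890-92349139 (minus) and for Cxcl12 chr6:117168285-117168534 (plus). The GENCODE models of Cxcl1 and Cxcl2 begin inside these windows, at 90891241 and 90903871. Capitals mark matches to GGGANNNNCC, the letters of an NF-kappaB-like site, and to GAAANNGAAA, those of an interferon-response-like site, searched on both strands.
Cxcl1: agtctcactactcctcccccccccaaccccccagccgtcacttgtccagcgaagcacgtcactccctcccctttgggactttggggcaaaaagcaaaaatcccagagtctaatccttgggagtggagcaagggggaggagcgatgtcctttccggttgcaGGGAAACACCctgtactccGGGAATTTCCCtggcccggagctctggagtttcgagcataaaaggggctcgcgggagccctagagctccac
Cxcl2: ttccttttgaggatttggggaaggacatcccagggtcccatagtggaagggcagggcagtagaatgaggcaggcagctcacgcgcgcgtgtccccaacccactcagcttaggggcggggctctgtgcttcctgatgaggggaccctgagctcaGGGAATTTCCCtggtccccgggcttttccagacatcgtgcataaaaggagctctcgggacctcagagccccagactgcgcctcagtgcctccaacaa
Cxcl10: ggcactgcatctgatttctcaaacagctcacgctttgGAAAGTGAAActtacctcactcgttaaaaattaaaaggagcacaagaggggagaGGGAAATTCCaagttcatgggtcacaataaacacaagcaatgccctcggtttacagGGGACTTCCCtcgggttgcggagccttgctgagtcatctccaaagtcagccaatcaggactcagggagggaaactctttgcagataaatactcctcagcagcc
Cxcl12: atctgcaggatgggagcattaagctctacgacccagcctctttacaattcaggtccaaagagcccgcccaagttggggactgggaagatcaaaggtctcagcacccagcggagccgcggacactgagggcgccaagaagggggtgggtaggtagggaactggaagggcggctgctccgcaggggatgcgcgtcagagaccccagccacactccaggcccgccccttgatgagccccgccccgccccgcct

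The NF-kappaB-like letters matched 3 times in the Cxcl1 window, 2 times in that of Cxcl2 and 2 times in that of Cxcl10, with overlapping matches counted separately, and 0 times in that of Cxcl12. The interferon-response-like letters matched 1 time, in the Cxcl10 window. Over all 32851 promoter windows of this length, 17.63% held the first motif and 2.977% the second. Among the 54 windows of chemokine and receptor genes, 20 (37.04%) held the first and 3 (5.556%) the second. A match describes letters only, and no binding was measured.

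The libraries held 89996321 to 118649103 UMIs each and 51670 barcodes in all, of which 39559 were kept, giving 6328, 9486, 7241, 8620 and 7884 cells in BP replicate 1, BP replicate 2, MP, MP+BP and PD+MP. Any pair of libraries shared 15 to 33 barcodes. Clusters made without the chemokine and receptor genes were named from marker genes. SyS-like tumour cells made up 67.6% to 82.57% of each tumour, and macrophage-like cells 5.87% to 13.01%. The reporter EGFP of the hSS2 allele, which was no marker, stood at 30.79 to 41.79 CPM (UMIs of a gene in every 1000000 UMIs of the class) in SyS-like cells and at 0.4297 to 2.413 CPM in macrophage-like cells. The PD+MP tumour differed in sex-linked genes, where SyS-like cells had Xist at 0.3586 CPM against 1568 to 3944 CPM elsewhere. It was 1 of the 2 tumours without BP in the label, and the part of this difference in the comparisons of labels was not tested.

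Levels below are the UMIs of a gene summed over the cells of a class in 1 tumour, scaled to CPM by all UMIs of those cells. The 5 values in a row are in the order BP replicate 1, BP replicate 2, MP, MP+BP and PD+MP, unless a sentence says otherwise. Levels are compared for 1 gene between classes or tumours, not between genes. A mean was taken over tumours with at least 20 cells of the class. Of the genes counted, 28 ligands reached a mean of 20 CPM and 15 receptors a mean of 5 CPM in a class with such a mean in at least 3 tumours, and 3 further receptors are named as their partners (Cxcr2, Ccr3 and Ccr10). The other 22 features included 13 with a UMI.

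**Figure D1:**
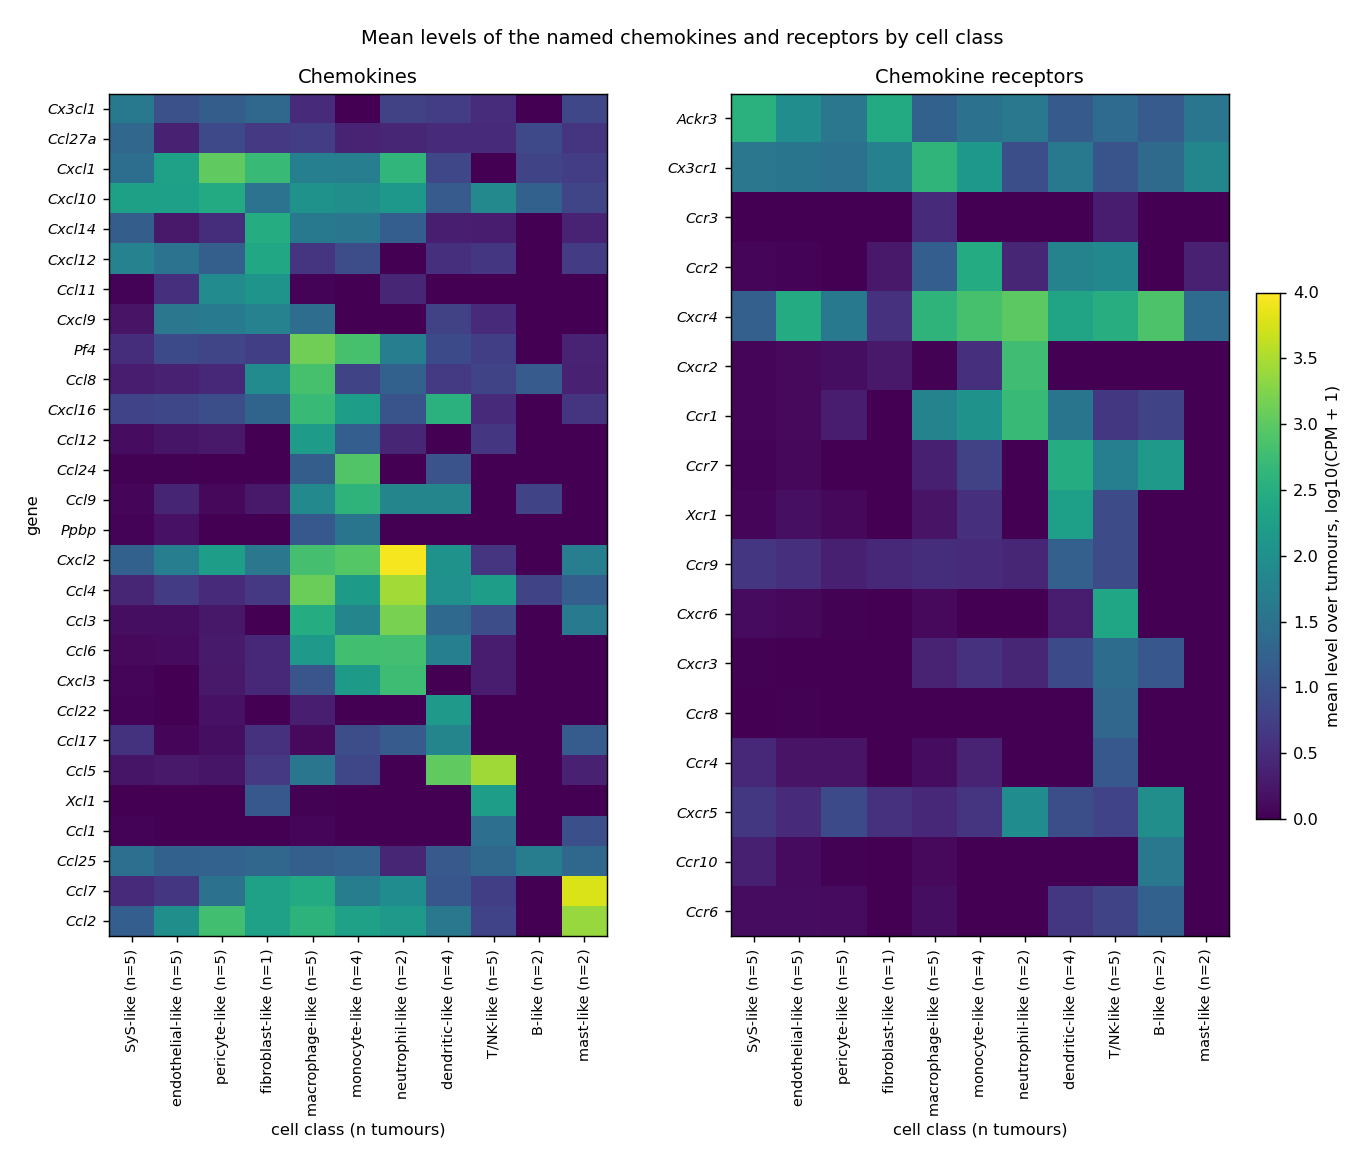
Mean level of named ligands (left) and receptors (right) in 11 cell classes, as log10(CPM + 1), with the number of tumours behind each column in brackets. Ackr3 stood at a mean of 351.5 CPM in SyS-like cells, and Ccl7 and Ccl2 were at their highest in mast-like cells, which 2 tumours held.

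The tumour cells themselves carried a short list of these genes. Ackr3, the scavenging receptor of Cxcl12, was high in SyS-like cells of every tumour, and Cxcl1, Cxcl2 and Ccl2 in these cells were highest in both BP tumours. Cxcl10, Cxcl12 and Cx3cl1 had most of their UMIs in SyS-like cells. These cells also held most UMIs of all genes, 383683504 beside 21619486 in macrophage-like and 18057161 in endothelial-like cells. Such a share alone therefore does not mark a gene of tumour cells. Ackr3 stood at 415.4, 277.2, 346.6, 485.4 and 232.9 CPM in SyS-like cells. Macrophage-like cells of the same tumours lay between 12.52 and 24.18 CPM and endothelial-like cells between 45.4 and 123.5 CPM, so that SyS-like cells did not overlap with either. SyS-like cells held 97.2% to 99.0% of all Ackr3 UMIs of a tumour.

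Cxcl12, which draws Cxcr4-bearing cells, was at 78.73, 87.45, 3.853, 52.61 and 70.53 CPM in SyS-like cells. The MP tumour lay far below the other 4. There SyS-like cells held 61.72% of the Cxcl12 UMIs, against 93.17% to 99.11% in the others. Cx3cl1, a membrane-bound ligand for Cx3cr1, was at 54.95, 58.19, 35.22, 24.23 and 26.23 CPM, highest in both BP tumours and lowest in MP+BP, so that tumours with and without BP in the label overlapped.

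Cxcl10, an interferon-induced ligand of Cxcr3, was at 396.8, 254.7, 192.6, 42.07 and 53.69 CPM in SyS-like cells. It was highest in both BP tumours, yet MP lay above MP+BP, and the labels overlapped. SyS-like cells held 91.91%, 92.59%, 87.72%, 70.62% and 80.17% of the Cxcl10 UMIs of the tumours. In MP+BP and PD+MP this lay below the share of SyS-like cells in the UMIs of all genes. The Cxcl10 UMIs were unevenly spread within SyS-like cells: the 1% of cells with the most held 22.4%, 23.22%, 25.33%, 58.01% and 30.16% of them. For Ackr3 the same share was 7.94% to 11.2%. Cells differed in depth, so these shares describe each tumour and are not compared between tumours.

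Cxcl1, a ligand of Cxcr2, was at 67.69, 52.4, 3.527, 8.591 and 0.9654 CPM in SyS-like cells, and Cxcl2, a second ligand of that receptor, at 42.1, 30.61, 2.613, 4.06 and 1.917 CPM. The monocyte-attracting Ccl2 was at 21.36, 39.51, 2.312, 6.642 and 3.462 CPM. For each of the 3 genes both BP tumours were highest and MP+BP lay nearer to the tumours without BP, with no overlap between tumours with and without BP in the label. Cxcl14 was at 15, 16.43, 3.017, 31.7 and 3.917 CPM, again without overlap, with MP+BP highest. How many of all genes separate the labels in this way was not counted, so the lack of overlap only describes these genes. The source of a ligand shifted with its level: SyS-like cells held 62.85% and 76.42% of Cxcl1 UMIs in the BP tumours but 5.239%, 23.35% and 6.61% in MP, MP+BP and PD+MP, where pericyte-like cells held 62.11%, 36.06% and 26.53%. Endothelial-like cells held 34.6% in MP+BP, close to the pericyte-like share, and in PD+MP the largest share, 52.41%, lay in fibroblast-like cells. These shares also depend on how many cells of each class the dissociation gave.

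**Figure D2:**
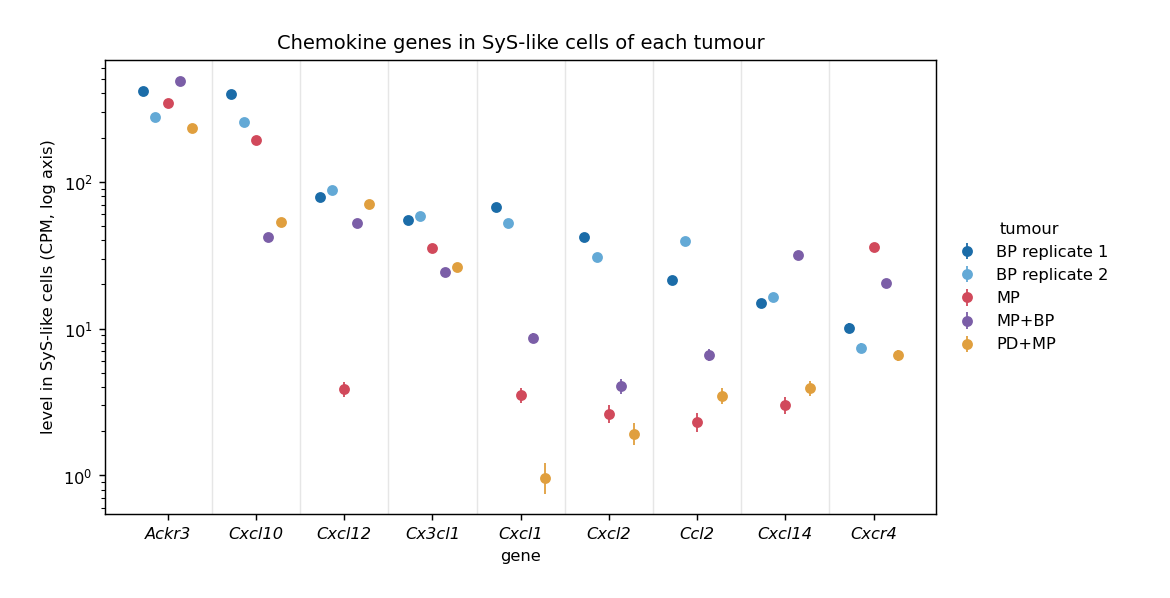
Level of 9 genes in SyS-like cells (CPM, log axis), with 1 point per tumour and bars for the exact 95% Poisson interval of the count, which covers counting error only. Cxcl1, Cxcl2 and Ccl2 were highest in both BP tumours, and Cxcl12 in MP, at 3.853 CPM, lay below the other tumours.

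The 3 tumours with BP in the label (BP replicates 1 and 2 and MP+BP) were compared with the 2 without it (MP and PD+MP) in SyS-like cells. With edgeR's quasi-likelihood test, 0 of the 42 chemokine and receptor genes that passed the filter on low counts were called at an adjusted p under 0.05, beside 0% of all 20887 genes. At an unadjusted p under 0.05 there were 7, beside 2133 of all 20887 genes. These 7 were Cxcl5 at a log2 fold change of 5.52 (SE 0.85), Cxcl1 at 4.19 (SE 1.10), Cxcl2 at 3.42 (SE 1.01), Ccl2 at 2.89 (SE 0.82), Cxcl14 at 2.50 (SE 0.43), Cxcl9 at 2.11 (SE 0.54) and Pf4 at -1.90 (SE 0.66). Their adjusted p ran from 0.432 to 0.46. Cxcl5, a further ligand of Cxcr2, lay below the level for naming and is named after its values were seen, with 55, 32, 1, 79 and 1 UMIs. DESeq2 called 6 of the genes, all of these but Pf4 and all higher with BP. Over all 20887 genes it called 449 higher and 105 lower. Leaving out MP left 1 tumour without BP, and the genes called then are not named. For Cxcl2 and Ccl2 the SyS-like levels of MP, MP+BP and PD+MP were 0.2113% to 1.412% of the macrophage-like level. Those of both BP tumours were 5.517% to 16.78%. Among macrophage genes that tumour cells should lack, Csf1r and Cd68 lay at 0.5377% to 1.669%, and the others read below reached 0.3413%. The part of free RNA in these levels was not tested.

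Among SyS-like clusters, numbers 7, 20 and 22 stood apart, a choice made after the values were seen. Their leading genes included Tenm3 and Il1rapl2, with Foxp2 and Lgr5 in clusters 7 and 20, Cartpt in cluster 20 and Sst in cluster 22. Cxcl12 was at 326.2, 335.4, 128.9, 247.4 and 324.5 CPM in them and at 70.17, 69.98, 2.236, 22.27 and 65.17 CPM in the other SyS-like clusters, a higher level in 5 of 5 tumours. Ackr3 was at 533.2, 354.2, 716.0, 796.3 and 512.7 CPM against 411.4, 271.8, 341.8, 437.0 and 227.0 CPM, also higher in each tumour. Cxcl10 went the other way in 4 tumours, at 69.6, 126.8, 108.4, 66.73 and 24.04 CPM against 408.1, 263.7, 193.6, 38.23 and 54.32 CPM, with MP+BP the exception. No test was made on clusters picked in this way.

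RNA released from broken cells can enter droplets of other cells. As a gauge, 10 genes of macrophages (C1qa, C1qb, C1qc, Tyrobp, Fcer1g, Lyz2, Laptm5, Aif1, Csf1r and Cd68) were read in SyS-like cells, at 0.07204% to 1.669% of their macrophage-like level in the same tumour (median 0.2151%). Of 30 chemokine and receptor genes with at least 50 UMIs in macrophage-like cells, 10 exceeded 1.669% in every tumour with a value, namely Ackr3, Cxcl12, Cxcl10, Cxcl1, Cxcl14, Ccl25, Ccl27a, Cxcr4, Cx3cr1 and Ccr9. Cxcl12 had 0 UMIs in macrophage-like cells of MP and so no value there. The gauge covers RNA of macrophages, and that of other classes was not gauged. Cxcl1 in SyS-like cells was at 2.798% of the macrophage-like level in MP and 8.793% in PD+MP, where pericyte-like cells stood at 926.1% and 10030%. The SyS-like levels of Pf4, Ccl3, Ccl4, Ccl6, Ccl8, Ccl9 and Ccr1 did not exceed the range of the 10 macrophage genes in any tumour and are read as background. In pericyte-like cells the same macrophage genes reached 4.271% and in endothelial-like cells 1.796%.

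**Figure D3:**
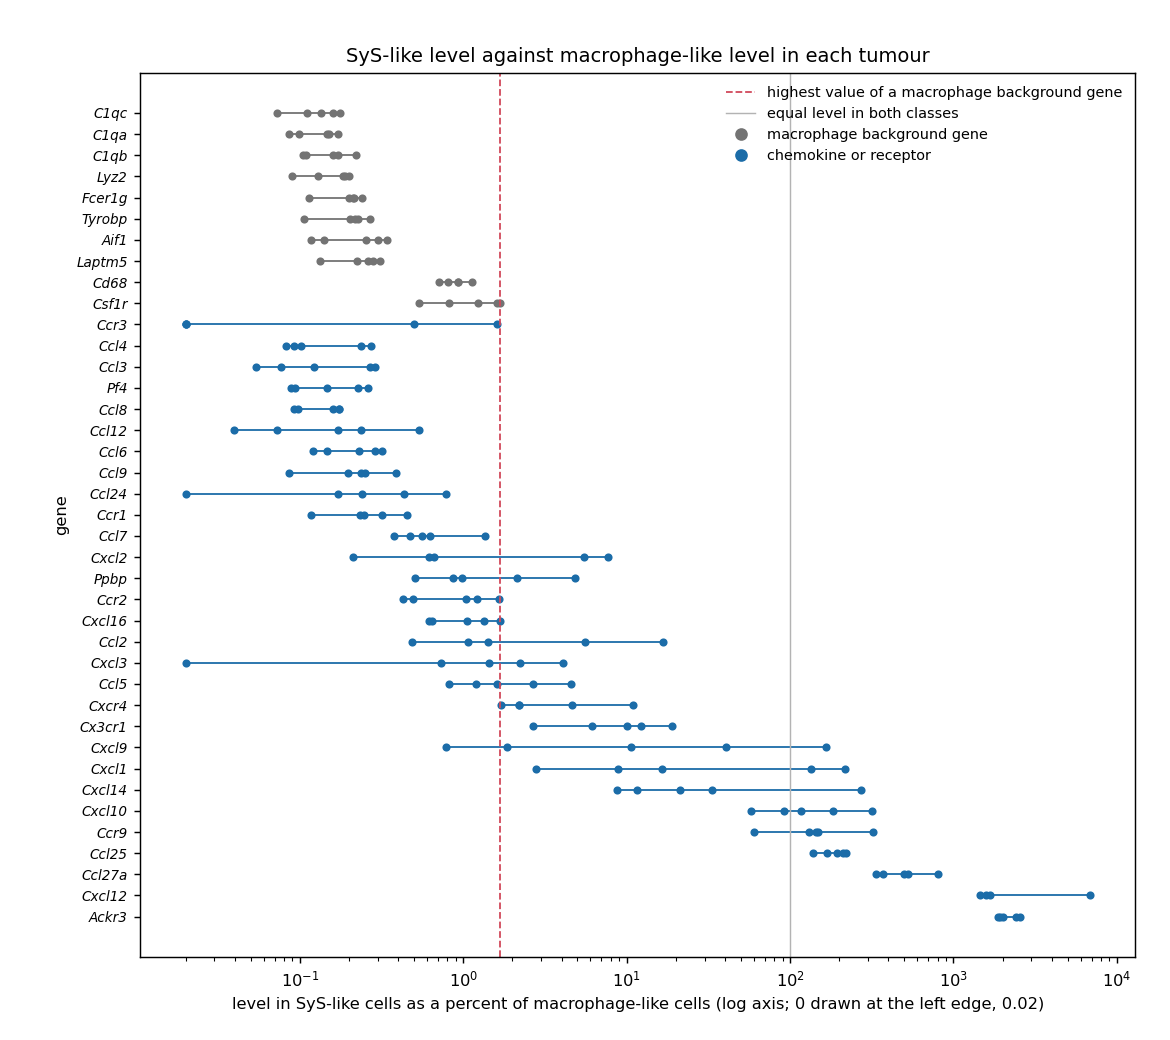
Level in SyS-like cells as a percent of the level in macrophage-like cells (log axis), with 1 point per tumour and a line over the range, for 10 macrophage background genes (grey) and chemokine and receptor genes (blue). The dashed line is the highest background value, 1.669%. Ackr3 and Cxcl12 lie at the right, and Pf4, Ccl4 and Ccl8 among the grey genes.

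Macrophage-like cells carried ligands for monocytes, T cells and neutrophils alike. Pf4, a platelet-type chemokine that tissue macrophages also make, was at 954.3, 413.4, 1674, 1272 and 2544 CPM, lowest in both BP tumours, which did not overlap with the other 3. The summed level of 5 platelet markers (Itga2b, Gp9, Gp1bb, Gp6 and Treml1) in these cells was 1.541 to 4.291 CPM. Ccl4, a macrophage inflammatory protein, was at 698.1, 1751, 2206, 644.1 and 947.1 CPM, highest in BP replicate 2 and MP. Ccl3, a ligand of Ccr1, was at 200.7, 331.9, 543.5, 173.9 and 240.0 CPM, with the same 2 tumours highest. Fos, which rises during tissue dissociation, was at 308.6 to 919.7 CPM in macrophage-like cells and its part in these levels was not tested.

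Ligands of Ccr2 were found in macrophage-like cells of every tumour. Ccl2 was at 385.9, 235.5, 478.6, 470.3 and 322.6 CPM, Ccl7 at 262.7, 165.2, 365.5, 395.2 and 212.1 CPM and Ccl12 at 156.8, 122.5, 164.7, 129.7 and 208.2 CPM. BP replicate 2 was lowest for all 3 genes. Cxcl2 was at 763.2, 396.4, 1237, 655.8 and 287.6 CPM. Cxcl16, a membrane-anchored ligand of Cxcr6, varied little, at 497.8, 571.5, 519.6, 494.1 and 440.9 CPM. Ccl6 and Ccl9, ligands of Ccr1 in the mouse, lay at 54.3 to 274.5 CPM and at 17.2 to 108.4 CPM. Cxcl9, an interferon-gamma-induced ligand of Cxcr3, was at 115.1 CPM in MP+BP and at 0.6602 to 6.7 CPM in the other 4 tumours.

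Ccl8, a ligand of Ccr8 in the mouse, was at 310.3, 343.5, 84.8, 1043 and 1598 CPM in macrophage-like cells. The high value of PD+MP came largely from cluster 42, whose leading genes were Ccl8, C1qa, Mrc1 and F13a1 and which held 71 cells, 64 of them from PD+MP. Ccl8 was at 16940 CPM in that cluster, and without it the macrophage-like levels were 242.2, 292.4, 84.75, 1026 and 324.4 CPM, which left MP+BP alone above the rest. Since Ccl8 led cluster 42, its level there only describes that cluster. Clusters 42, 27 and 33 were picked after the values were seen, and no test was made on them. Pf4 was at 3604 CPM in cluster 27 (leading genes Spp1, Trem2 and Mmp12) and Ppbp, a further platelet-type ligand, at 74.17 CPM there. Ccl4 and Ccl3 were highest among macrophage-like clusters in cluster 37, at 3531 and 955.8 CPM. Cxcl9 was at 183.5 CPM in cluster 32, which was led by C1q and class II genes. Cluster 33, which stayed without a name since its leading genes Ly6c2 and Ms4a4c were monocyte markers beside those of macrophages, held 217 cells, 205 of them from PD+MP, with Ccl2 at 2327 CPM, Ccl7 at 1216 CPM, Ccl12 at 964.6 CPM and Pf4 at 3371 CPM.

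Against SyS-like cells of the same tumours, with the tumour as a block, 29 of 48 chemokine and receptor genes that passed the filter were called higher in macrophage-like cells (24.1% of all 20427 genes) and 6 lower (36.6%). The median log2 fold change was 4.13 over these genes and -0.36 over all genes. Without scaling beyond total counts, all genes split into 3272 higher and 11245 lower in place of 4924 and 7482, and the chemokine and receptor genes into 28 and 9. Among ligands the log2 fold change was 10.05 for Ccl4 (SE 0.37, adjusted p = 1.48e-10 by edgeR's quasi-likelihood test), 10.03 for Ccl8 (SE 0.26) and 9.94 for Pf4 (SE 0.34), and 7.21 for Cxcl16 (SE 0.27). For Ccl4, Ccl8 and Pf4 the SyS-like level, as a percent of the macrophage-like level, lay within the range of the 10 macrophage genes. The size of these folds depends on that level, and the part of free RNA in it was not tested. Lower were Cxcl12 at -3.89 (SE 0.32, adjusted p = 2.49e-07), Ackr3 at -3.86 (SE 0.16, adjusted p = 5.03e-10), Cx3cl1 at -3.77 (SE 0.23), Ccl17 at -3.01 (SE 0.63), Ccl27a at -1.70 (SE 0.23) and Cxcl17 at -1.73 (SE 0.54), the last of which is below the level for naming and is named after its values were seen.

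Cxcl10 did not differ detectably between macrophage-like and SyS-like cells, the log2 difference being 0.17 (SE 0.28, adjusted p = 0.61 by edgeR). In macrophage-like cells it was at 124.6, 138.8, 164.7, 73.0 and 58.2 CPM, below the SyS-like level in 3 tumours and above it in MP+BP and PD+MP. Cxcl1 was called higher in macrophage-like cells at 2.46 (SE 0.81, adjusted p = 0.0194), from levels of 50.17, 24.28, 126.1, 52.12 and 10.98 CPM. Both BP tumours went against that direction, since their SyS-like levels were higher, and the call was lost without MP+BP (adjusted p = 0.074) or without PD+MP (adjusted p = 0.0512).

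**Figure D4:**
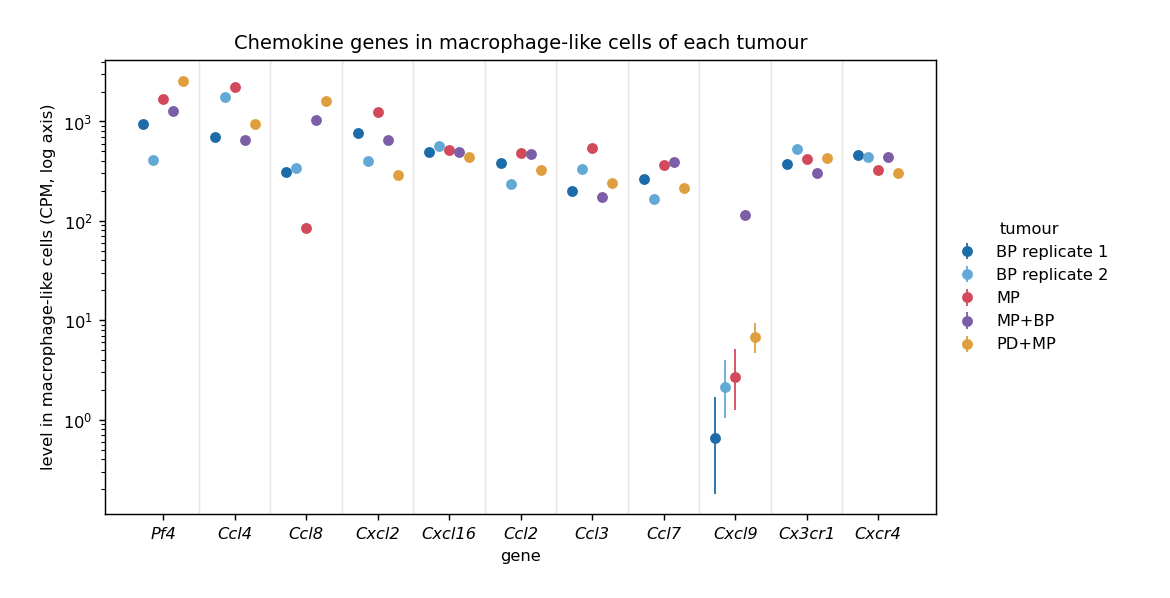
Level of 11 genes in macrophage-like cells (CPM, log axis), with 1 point per tumour and exact 95% Poisson intervals for counting error. Cxcl16, Cx3cr1 and Cxcr4 lie close together over the tumours, while Ccl8 and Cxcl9 spread widely, Cxcl9 with MP+BP alone at 115.1 CPM.

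Pericyte-like cells, the mural cells of small vessels, were the class with the highest mean Cxcl1 over tumours. It was at 901.9, 1083, 1168, 979.2 and 1101 CPM, a narrow range that did not overlap with the SyS-like, endothelial-like or macrophage-like levels of any tumour. Ccl2 was at 1184, 392, 550.7, 780.7 and 207.7 CPM, and Cxcl10 at 405.2, 421.3, 168.5, 235.1 and 176.4 CPM. BP replicate 1 was highest for Ccl2 and both BP tumours were highest for Cxcl10. Ccl11, the eosinophil-attracting eotaxin, was at 75.1, 132.5, 41.9, 87.3 and 86.2 CPM in pericyte-like cells and at 0.625 to 4.421 CPM in endothelial-like cells. Fos, at 1300 to 1730 CPM, and Jun, at 747.0 to 1144 CPM, were also high in pericyte-like cells, and their part in the ligand levels was not tested.

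Fibroblast-like cells reached 20 cells in PD+MP alone, where 121 cells gave Cxcl1 at 494.2 CPM, Cxcl14 at 301.9 CPM, Cxcl12 at 253.8 CPM, Ackr3 at 278.7 CPM, Ccl7 at 196.8 CPM, Ccl11 at 117.5 CPM and Ccl8 at 83.7 CPM. These values have no replicate. EGFP stood at 6.233 CPM in them, on 7 UMIs, below the range of SyS-like cells and above that of macrophage-like cells. Ccl19, a ligand of Ccr7 below the level for naming and named after its values were seen, was at 56.1 CPM in them.

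Pericyte-like and fibroblast-like cells were summed as stromal cells and compared with SyS-like cells. Of 43 chemokine and receptor genes that passed the filter, 14 were called higher (12.1% of all 20409 genes) and 3 lower (15.4%), with a median log2 fold change of 1.04 against -0.19 over all genes. The 14 include Pf4, Ccl6 and Ccl8, which stood in pericyte-like cells at no more than 1.7% of their macrophage-like level. Background genes reached 4.271% there through Csf1r, and the others 1.438%. Of the 104 stromal UMIs of Ccl8, however, fibroblast-like cells held 96, and Ccl8 was at 83.7 CPM in those of PD+MP. Ccl11 was higher at 10.13 (SE 0.47, adjusted p = 1.47e-06 by edgeR), Cxcl1 at 6.72 (SE 0.97, adjusted p = 0.000953), Cxcl9 at 6.55 (SE 0.49), Ccl2 at 6.21 (SE 0.69), Ccl7 at 5.26 (SE 0.54) and Cxcl2 at 4.57 (SE 0.59). Ackr3 was lower at -2.27 (SE 0.49, adjusted p = 0.00796), as were Ccl27a at -1.40 (SE 0.30) and Cx3cl1 at -1.18 (SE 0.31). Cxcl10 at 0.77 (SE 0.35, adjusted p = 0.14) and Cxcl12 at 0.29 (SE 0.58, adjusted p = 0.752) were not called. Without BP replicate 1 the calls fell to 10, and the call of Cx3cl1 was lost without either BP tumour or without MP (adjusted p = 0.0631 to 0.0814).

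Endothelial-like cells, the lining of vessels, carried Cxcl1 at 148.5, 172.6, 220.1, 279.1 and 164.8 CPM, Cxcl10 at 168.7, 260, 183.1, 247.9 and 44.6 CPM and Cxcl9 at 30.2, 32.4, 37.7, 55.4 and 30.9 CPM. Cxcl9 and Cxcl1 kept to a narrow range, highest in MP+BP, and PD+MP was low for Cxcl10. Against SyS-like cells, 11 of the 44 chemokine and receptor genes tested were called higher (21% of all 20797 genes) and 8 lower (30.4%), with medians of 0.58 and -0.22. The 11 include Pf4, which stood in endothelial-like cells at 0.2698% to 1.014% of its macrophage-like level. Background genes reached 1.796% there. Cxcl9 was higher at a log2 fold change of 6.15 (SE 0.43, adjusted p = 1.18e-06 by edgeR), Cxcl1 at 4.45 (SE 0.95, adjusted p = 0.00292), Ccl2 at 3.42 (SE 0.86) and Cxcl2 at 2.64 (SE 0.61). Cxcl14 was lower at -3.75 (SE 0.39), Ccl27a at -3.66 (SE 0.41), Cx3cl1 at -1.99 (SE 0.34) and Ackr3 at -1.80 (SE 0.26, adjusted p = 0.000227). Cxcl10 at 0.32 (SE 0.45, adjusted p = 0.585) and Cxcl12 at -0.53 (SE 0.78, adjusted p = 0.594) were not called.

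Macrophage-like and endothelial-like cells were compared directly to set immune against vascular sources. Of 37 chemokine and receptor genes tested, 23 were called higher in macrophage-like cells (32% of all 14185 genes) and 7 lower (32.5%), with medians of 3.99 and 0.00. Lower were Cxcl12 at -2.86 (SE 0.53), Ackr3 at -2.15 (SE 0.26), Cxcl1 at -1.86 (SE 0.33), Cx3cl1 and Ccl11, together with Ackr1 at -6.66 (SE 0.99) and Ackr2 at -4.42 (SE 0.87). Ackr1 and Ackr2, scavenging receptors of endothelium that are named after their values were seen, stood on at most 25 UMIs in any tumour, and Ackr1 ranged from 0.2793 to 6.865 CPM.

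Other immune classes held ligands of their own, on few cells. T/NK-like cells (32 to 72 cells per tumour) carried Ccl5, made by activated lymphocytes, at 1023, 900.2, 2825, 6591 and 1945 CPM, highest in MP+BP and lowest in both BP tumours. Xcl1, which acts on Xcr1 of cross-presenting dendritic cells, was at 116.5, 146.3, 61.7, 261.5 and 260.1 CPM, and reached 728.9 CPM in cluster 44, led by the NK cell genes Gzma, Nkg7 and Klrd1. Ccl1 was at 123.8 CPM in BP replicate 2, which rests on 11 UMIs, at 17.83 CPM in MP+BP and at 0 in the other 3. The 11 dendritic-like cells of BP replicate 2, too few for a mean, held 36 of the 58 Ccl1 UMIs of that tumour. They also held 33 Xcl1 UMIs, while dendritic-like cells of the other tumours held 0 of either ligand. In dendritic-like cells of BP replicate 1, MP, MP+BP and PD+MP, Ccl5 was at 1538, 1221, 286.4 and 1216 CPM. Ccl22, a ligand of Ccr4, was at 317.7, 22.4, 176.2 and 54.4 CPM in the same order, and Ccl17, which shares that receptor, at 89.0, 8.9, 148.2 and 10.2 CPM. Both were higher in BP replicate 1 and MP+BP than in MP and PD+MP. How many of all genes split these tumours in this way was not counted, so the split only describes Ccl22 and Ccl17. Cluster 47, led by Ccl5, Ccr7 and Il12b, held Ccl5 at 10610 CPM and Ccl22 at 1024 CPM in 35 cells. Since Ccl5 led cluster 47, its level there only describes that cluster. Levels given for single clusters pool the cells of all tumours and were not tested.

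Neutrophil-like cells reached 20 cells in BP replicate 1 (119 cells) and MP (20 cells). Cxcl2 was at 13880 and 3649 CPM in them, Ccl4 at 3898 and 1670 CPM and Ccl3 at 2390 and 693.8 CPM, each higher in BP replicate 1. With doublets kept, 3 tumours held at least 20 of these cells, and 8 of the 31 chemokine and receptor genes tested were called higher than in macrophage-like cells by edgeR (10.2% of all 10911 genes) and 11 lower (7.77%), with medians of 0.50 and -0.29 on the log2 scale. Mast-like cells (107 cells in MP and 109 in MP+BP) carried Ccl7 at 4342 and 7336 CPM and Ccl2 at 1852 and 2981 CPM, and held 12.64% and 27.7% of the Ccl2 UMIs of these tumours. Monocyte-like cells, whose leading genes included Elane, Mpo and Ctsg of myeloid precursors, carried Ccl24, an eotaxin, at 814.8, 0, 2475 and 41.0 CPM in BP replicate 1, MP, MP+BP and PD+MP. It was high in the 2 of these tumours with BP in the label and low in those without. Ccl6 in them was at 1049, 451.5, 538.4 and 461.4 CPM. With 4 tumours or fewer, these levels were not compared between labels by a test. How many of all genes split the tumours as Ccl24 did was not counted.

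Among T/NK-like cells against macrophage-like cells, 9 of the 32 chemokine and receptor genes tested were called higher (17.5% of all 10703 genes) and 20 lower (26.3%), with medians of -4.08 and -0.18. Without scaling beyond total counts, all genes split into 2585 higher and 2047 lower in place of 1872 and 2814, and the chemokine and receptor genes into 9 and 18. Xcl1 was higher at a log2 fold change of 10.34 (SE 0.48, adjusted p = 1.31e-26 by edgeR) and Ccl5 at 5.72 (SE 0.21, adjusted p = 7.02e-31). Lower were the myeloid ligands, among them Ccl9 at -10.52 (SE 1.02), Pf4 at -8.59 (SE 0.35), Cxcl16 at -7.96 (SE 0.41) and Ccl2 at -6.63 (SE 0.38). Ccl1 was called at 6.53 (SE 1.21), from 11 UMIs in BP replicate 2 and 3 in MP+BP, and was not called by DESeq2 (adjusted p = 0.128).

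Receptors were read in the same classes. Ccr2, the receptor of Ccl2, Ccl7 and Ccl12, was at 233.7, 200, 293.7 and 440.9 CPM in monocyte-like cells of BP replicate 1, MP, MP+BP and PD+MP. It was at 76.0, 56.3, 61.7, 71.3 and 96.1 CPM in T/NK-like cells, and at 14.8, 2.6, 15.1, 12.5 and 28.1 CPM in macrophage-like cells. The 3 classes did not overlap. Ccr1 was at 33.7 to 91.7 CPM in macrophage-like cells and at 454.1 and 565.3 CPM in neutrophil-like cells of BP replicate 1 and MP. Cxcr2, the receptor of Cxcl1 and Cxcl2, was at 447.5 and 745.2 CPM in the same neutrophil-like cells and had 2 UMIs in all macrophage-like cells.

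Cxcr4, the receptor of Cxcl12, was shared by immune and endothelial cells. It was at 458.3, 436.1, 327.5, 443.2 and 301.8 CPM in macrophage-like cells and at 429.2, 294.4, 259.6, 246.1 and 200.8 CPM in endothelial-like cells. T/NK-like cells lay at 430.5, 303.8, 288.1, 297.1 and 248.8 CPM, and the ranges of the 3 classes overlapped, although macrophage-like cells were the highest of the 3 in each tumour. In SyS-like cells Cxcr4 was at 10.06, 7.4, 35.75, 20.53 and 6.579 CPM, highest in the MP tumour, where Cxcl12 was lowest. Cxcr4 was higher in macrophage-like than in SyS-like cells at 5.49 (SE 0.38, adjusted p = 4.83e-08 by edgeR) and than in endothelial-like cells at 0.81 (SE 0.13, adjusted p = 0.000243). Endothelial-like cells were higher than SyS-like cells at 4.59 (SE 0.38). T/NK-like cells were lower than macrophage-like cells at -0.63 (SE 0.18), a call lost without scaling beyond total counts (adjusted p = 0.16).

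Cx3cr1, the receptor of Cx3cl1 and a gene of resident macrophages, was at 374.3, 523.1, 415, 301.4 and 431.3 CPM in macrophage-like cells. SyS-like cells were at 46.07, 32.3, 41.75, 57.13 and 11.6 CPM, or 2.689% to 18.95% of the macrophage-like level, above the 1.669% that background genes reached. Macrophage-like cells were higher by 4.13 on the log2 scale (SE 0.34, adjusted p = 2.66e-07 by edgeR). The GENCODE model of Cx3cr1 (chromosome 9, 119901616 to 120069879, minus strand) overlaps Gorasp1, Csrnp1 and Xirp1 on the same strand, and reads of these genes cannot be told apart there. Ccl25, the ligand of Ccr9, was at 21.65 to 30.84 CPM in SyS-like cells and was not called against macrophage-like cells (-0.31, SE 0.17, adjusted p = 0.14).

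Lymphocyte and dendritic cell receptors followed their classes. Cxcr6, the receptor of Cxcl16, was at 167.1, 472.6, 138.9, 231.8 and 96.1 CPM in T/NK-like cells, higher than in macrophage-like cells at 8.94 (SE 0.42, adjusted p = 2.04e-26 by edgeR), and reached 534.0 CPM in cluster 43, led by Icos, Il17a and Il23r. Cxcr3, the receptor of Cxcl9 and Cxcl10, had 0 to 10 UMIs in T/NK-like cells of a tumour, at 10.13, 11.25, 0, 47.54 and 56.55 CPM, and was higher than in macrophage-like cells at 3.48 (SE 0.69, adjusted p = 2.88e-05). The values of the BP tumours rest on 1 or 2 UMIs. Ccr7, which guides cells to lymph nodes, was at 447.3, 277.2, 214.3 and 246.3 CPM in dendritic-like cells of BP replicate 1, MP, MP+BP and PD+MP and at 5.7 to 111.4 CPM in T/NK-like cells. Xcr1 was at 142.3, 122.9, 160.2 and 302.3 CPM in the dendritic-like cells and rested on cluster 40 (397.5 CPM). B-like cells of BP replicate 1 and MP had means of 753.3 CPM for Cxcr4, 138.8 CPM for Ccr7 and 94.71 CPM for Cxcr5, the B cell follicle receptor.

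The remaining named genes were low or rested on few UMIs. Ccl27a, a skin chemokine, was at 16.47 to 23.62 CPM in SyS-like cells and lower in the 3 classes tested against them. Its near-identical copies, like those of Ccl19 and Ccl21a, share reads, so that levels of these genes are uncertain, and the 9 features with no UMI were all copies of Ccl19, Ccl21 or Ccl27. Cxcl3, a ligand of Cxcr2, was at 1114 CPM in neutrophil-like cells of BP replicate 1 and rested on 1 UMI in MP. Ccr3, the eotaxin receptor, was at 0.8338 to 3.136 CPM in macrophage-like cells. In T/NK-like cells Ccr4 had 0 to 4 UMIs in a tumour and Ccr6 at most 1, while Ccr8, the receptor of Ccl1 and Ccl8, had 8 UMIs in BP replicate 2 and at most 1 elsewhere. Ccr10, the receptor of Ccl27a, had 6 UMIs in B-like cells of MP and 0 in those of BP replicate 1. Ccr9, the receptor of Ccl25, was at 1.738 to 4.149 CPM in SyS-like cells, and its gene model overlaps others on both strands. Among named classes with a mean in at least 3 tumours, Ccr9 was highest in dendritic-like cells, at a mean of 15.62 CPM. Cells without a class name in PD+MP held Ccr9 at 88.02 CPM. The 13 features with a UMI that are below the level for naming had 1 to 977 UMIs in all kept cells.

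**Figure D5:**
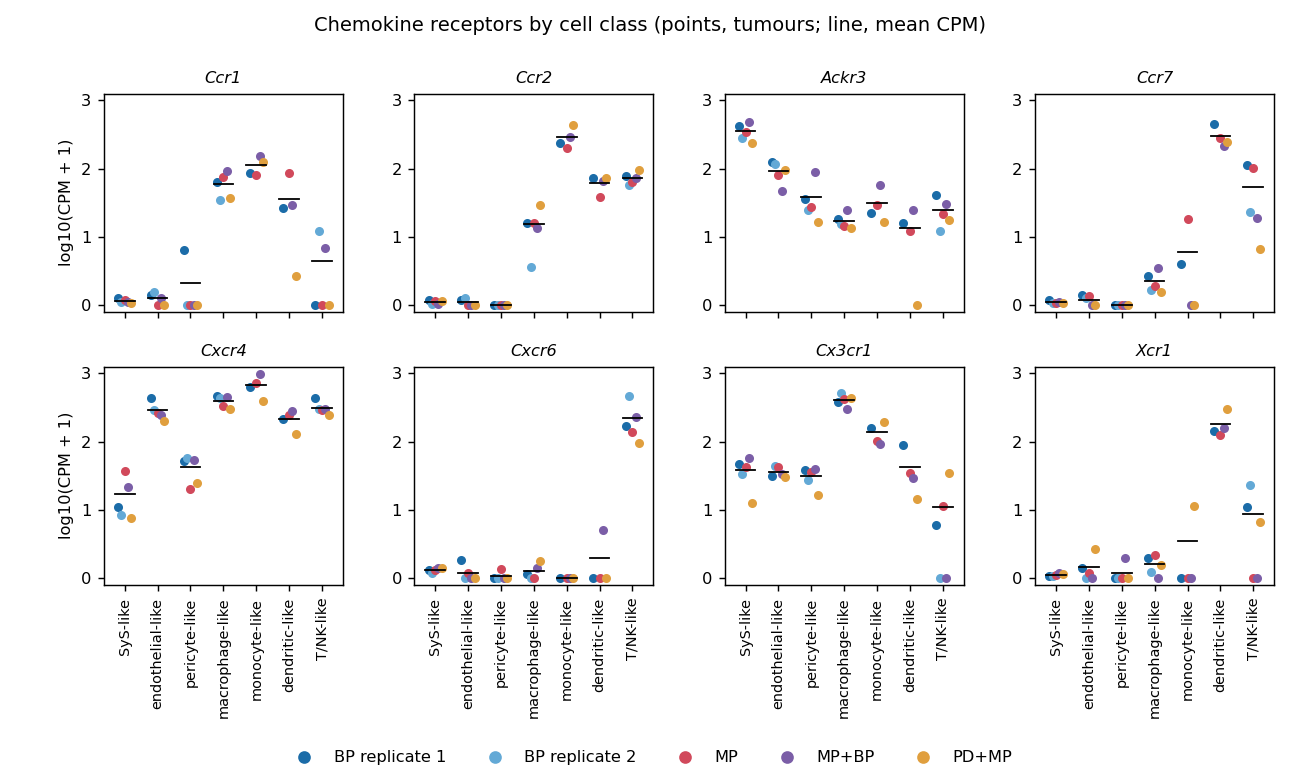
Level of 8 receptors in 7 cell classes as log10(CPM + 1), with 1 point per tumour holding at least 20 cells of the class and a line at the mean CPM. Ccr2 is highest in monocyte-like cells, Cxcr6 in T/NK-like cells and Xcr1 in dendritic-like cells, while Cxcr4 is at 200.8 CPM or more in every endothelial-like, macrophage-like and T/NK-like value.

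In macrophage-like cells, tumours with BP in the label were compared with those without it. Of 31 chemokine and receptor genes tested, 0 were called by edgeR (0% of all 12012 genes) or by DESeq2 (22 higher and 9 lower over all genes). At an unadjusted p under 0.05 by edgeR there were 4, beside 1421 of all 12012 genes. These 4 were Cxcr4 at a log2 fold change of 0.49 (SE 0.17), Ccl12 at -0.47 (SE 0.18), Pf4 at -1.27 (SE 0.43) and Cxcl3 at -2.27 (SE 0.80). Their adjusted p was 0.385 to 0.405. Without the filter on low counts 7 of 53 were called, beside 211 higher and 331 lower over all 21499 genes. In endothelial-like cells 0 of 19 genes were called by edgeR, beside 0.00783% of all 12775 genes. DESeq2 called 0 of the 19, beside 17 higher and 13 lower over all genes. At an unadjusted p under 0.05 by edgeR there were 0, beside 1120 of all 12775 genes. Cxcl1 there differed by 0.02 (SE 0.30), and Ccl2 by -0.18 (SE 0.71). Whether the difference between labels itself differed between SyS-like and endothelial-like cells was not tested.

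A list of 37 genes that act behind chemokine receptors (G proteins, arrestins and receptor kinases, Rgs proteins, lipid kinases, Rac and integrin regulators, with Ccrl2 and the chemokine-cleaving Dpp4) was read in the same tests. Against SyS-like cells, macrophage-like cells had 32 of 37 called higher and 2 lower, among them Rgs1 at 9.68 (SE 0.27), Ccrl2 at 8.27 (SE 0.38), Coro1a at 8.19 (SE 0.24) and Dock2 at 6.25 (SE 0.21), with Rgs3 at -0.69 and Grk6 at -0.61 lower. Endothelial-like cells had 15 higher and 4 lower, with Dock2 at -1.52 (SE 0.30) and Ccrl2 at 1.67 (SE 0.32). Stromal cells had 11 higher and 3 lower, with Dpp4 at 5.85 (SE 1.48) and Grk3 at -2.52. Macrophage-like against endothelial-like cells had 28 of 36 higher and 3 lower. T/NK-like against macrophage-like cells had 7 of 36 higher and 19 lower, with Dpp4 at 4.97 (SE 0.72), Dock2 at 1.41 (SE 0.17), Ccrl2 at -4.53 (SE 0.32) and Fgr at -8.18. Many of these genes are expressed in all leukocytes, and the percentages of all genes called in these comparisons are those given above.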

How the data were processed

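The authors dissociated each tumour, lysed red blood cells and made Chromium 3′ v3.1 libraries. Per the file headers, Cell Ranger 7.2.0 made the filtered matrices, and the deposited values are raw counts of UMIs per gene and cell, aligned to mm10 per the labels. Whether intronic reads were counted is not given in the sources used here. Nothing had been normalized or corrected for free RNA.

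Cells with at least 750 genes and at most 25% mitochondrial counts were kept (8488 and 666 barcodes removed). Doublets were scored with Scrublet in scanpy 1.11.5. Its automatic threshold marked no cell in 2 tumours, so the highest scores up to an expected rate of 0.8% per 1000 cells were removed (2957 cells), a rule set after that was seen. Cells were clustered on 3000 variable genes, chemokine and receptor genes left out, with 30 components, 20 neighbours and Leiden resolution 1, which gave 47 clusters. Classes were named from fixed markers, and the naming rule was revised after its first result had been seen.

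Counts were summed per tumour and class (at least 20 cells) and tested with edgeR 4.0.16, with TMM scaling, filterByExpr and the quasi-likelihood test, with the tumour as a block between classes and adjusted p-values over all genes tested (threshold 0.05). The design pairs the sums, since both come from 1 tumour. P-values measure the spread between tumours, and that the tumours came from separate animals was not stated. Intervals cover counting error only. The test was checked on simulated counts. A planned comparison of neutrophil-like with macrophage-like cells was run only with doublets kept, since 2 tumours held enough of these cells otherwise. Alternatives were DESeq2 1.42.0, no scaling beyond total counts, no filter on low counts, at least 1500 genes per cell, doublets kept, resolution 0.5, no block, and leaving out each tumour.

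Ligands were named from a mean of 20 CPM and receptors from 5 CPM in any class with at least 3 tumours, with partner receptors of named ligands from a fixed list of pairs. The members and lists were chosen with earlier results of these data known. Coordinates are those of GENCODE M21 on GRCm38. The values of 1 gene counted here are not reported.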

Additional observations from a re-analysis of the deposited data

How the results depend on the processing

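The 5 comparisons between classes kept their counts of called chemokine and receptor genes within 1.5 times under every alternative run, except that the stromal count of 17 fell to 10 without BP replicate 1 (10 to 17 over the tumours left out in turn). Leaving out a tumour gave 33 to 36 of the genes for macrophage-like against SyS-like cells, 16 to 20 for endothelial-like against SyS-like cells, 27 to 31 for macrophage-like against endothelial-like cells and 26 to 28 for T/NK-like against macrophage-like cells. Without the tumour block the counts were 33, 14, 14, 25 and 21, against 35, 19, 17, 30 and 29 with it, in the order macrophage-like, endothelial-like and stromal against SyS-like cells, macrophage-like against endothelial-like cells and T/NK-like against macrophage-like cells. No count changed by more than 1.5 times. Without the block fewer of the genes passed the filter on low counts, 24 in place of 32 for T/NK-like against macrophage-like cells. The part of the block in these counts therefore cannot be told apart from that of the filter. The comparisons between labels called 0 genes and were less stable: in SyS-like cells DESeq2 called 6 and leaving out a tumour gave 0 to 2, in macrophage-like cells no filter on low counts gave 7 and leaving out a tumour 0 to 1, and in endothelial-like cells no filter gave 1. The cause was not tested. Among 119 calls of single genes, 1319 values under an alternative stayed called in the same direction, 56 lost the call and 0 reversed. Scaling by total counts alone moved the median of macrophage-like against SyS-like cells over all genes, on the log2 scale, from -0.36 to -0.91. Mean levels moved by more than the spread between tumours in 3 cases, Cxcl1 in pericyte-like cells (1160 CPM with at least 1500 genes per cell, 864.1 CPM with doublets kept) and Ccr6 in T/NK-like cells (14.83 CPM with at least 1500 genes). With that filter the T/NK-like comparison gave no value.

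Rare classes rest on few cells, so that a receptor with few UMIs there, such as Cxcr3, cannot be ranked between tumours. Free RNA, overlapping gene models and the sex-linked difference of PD+MP limit single values. Histology was judged on neighbouring tissue, and the labels set 3 tumours against 2.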

Other observations

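Cluster 46, 36 cells led by the plasmacytoid dendritic cell gene Siglech, stayed without a class name and entered no comparison. Ccl4 was at 2071 CPM in it, Ccr2 at 198.3 CPM on 34 UMIs, and Cxcr3 at 52.5 CPM on 9 UMIs. Most of these cells (22) came from PD+MP.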
